A study of Mus musculus with 44 samples.

Results

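The loci of 10 genes that mark astrocytes, the support cells of the brain, were followed in open chromatin of cultured mouse cortical neurons. The genes were Slc1a2, Slc1a3, Gfap, Aqp4, Aldh1l1, Sox9, S100b, Gja1, Fgfr3 and Aldoc. Each locus was the mm10 gene body with 50 kb on each side, and a site inside several loci went to the nearest gene. A site was a 500 bp window centred on a summit, the point of strongest signal in a peak. Of 183089 such windows on the autosomes, 244 fell in these loci: 21 within 1 kb of a start of a marker gene, 83 in gene bodies, 111 in flanks and 29 within 1 kb of an end of another protein-coding gene. Slc1a2 had 42 sites, Gfap 40, Aldh1l1 30, Fgfr3 28, Slc1a3 26, Sox9 22, Aldoc 22, S100b 19, Aqp4 8 and Gja1 7.

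Accessibility was measured by ATAC-seq, in which a transposase cuts reachable DNA, in 44 libraries of neurons from E16.5 cortex, 2 for each of 22 groups. Every culture was silenced overnight with tetrodotoxin and D-AP5, and depolarized cultures then received 50 mM KCl. Wild-type neurons at 7 days in vitro (DIV7) received vehicle (0.1% DMSO) or FHT1015 at 100 nM for 10 or 30 min, with or without KCl. FHT1015 blocks the ATPase that drives the BAF chromatin remodeler. A separate DIV7 experiment had neurons infected with a non-targeting guide RNA or with a guide for Arid2 (Arid2KO, a subunit of the PBAF form), unstimulated or depolarized for 30 min. At DIV18 neurons carried a non-targeting guide, or lacked Smarcc2, a core subunit of BAF, and received vector, wild-type Smarcc2 or one of the mutants S586A and S586E, again unstimulated or depolarized for 30 min. Meninges were removed at dissection, and DNase was in the wells during treatment. The labels count embryos as the replicates but tie no library to an embryo, so p-values measure the spread between these libraries, which may be technical. Peak lists do not show whether the knockouts worked.

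Astrocytes take up glutamate through the transporters encoded by Slc1a2 (GLT-1) and Slc1a3 (GLAST). They are joined by gap junctions built from the Gja1 product connexin 43, move water through the channel aquaporin-4, and carry the intermediate filament GFAP, which rises when the cells react to injury. In cortex they arise from radial glia after most neurons have been born, and radial glia already use Slc1a3, Sox9, Fgfr3 and Aldoc.

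The promoters of 4 of these genes are shown because their start sites are among those that changed between the cultures or with KCl. They come from RefSeq's GRCm38.p6 assembly, and each runs 5′ to 3′ from 250 bases before to 50 bases after the start. Their positions are chr11:78322823-78323122 on the plus strand for the first start of Aldoc, chr11:102897151-102897450 on the minus strand for Gfap, chr10:76253586-76253885 on the plus strand for S100b and chr15:8710758-8711057 on the minus strand for Slc1a3. Capitals mark matches on either strand to TTGGC, which is 1 arm of the NFI motif, or to the STAT motif TTCNNNGAA.
Aldoc: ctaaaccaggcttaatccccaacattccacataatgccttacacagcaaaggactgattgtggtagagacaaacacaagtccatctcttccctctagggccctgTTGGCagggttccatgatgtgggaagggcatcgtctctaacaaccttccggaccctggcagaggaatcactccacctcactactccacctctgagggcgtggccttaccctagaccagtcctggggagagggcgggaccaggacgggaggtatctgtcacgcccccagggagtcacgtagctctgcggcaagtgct
Gfap: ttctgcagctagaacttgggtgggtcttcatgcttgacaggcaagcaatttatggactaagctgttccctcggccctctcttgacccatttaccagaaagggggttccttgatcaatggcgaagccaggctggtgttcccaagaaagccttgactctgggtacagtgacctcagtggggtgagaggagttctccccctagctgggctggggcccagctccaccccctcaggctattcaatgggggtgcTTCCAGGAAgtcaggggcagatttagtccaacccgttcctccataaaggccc
S100b: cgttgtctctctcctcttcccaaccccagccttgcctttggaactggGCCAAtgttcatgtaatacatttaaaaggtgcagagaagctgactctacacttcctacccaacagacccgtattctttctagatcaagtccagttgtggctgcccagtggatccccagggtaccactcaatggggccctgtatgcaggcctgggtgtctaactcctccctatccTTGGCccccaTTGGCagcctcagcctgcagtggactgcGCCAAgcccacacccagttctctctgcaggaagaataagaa
Slc1a3: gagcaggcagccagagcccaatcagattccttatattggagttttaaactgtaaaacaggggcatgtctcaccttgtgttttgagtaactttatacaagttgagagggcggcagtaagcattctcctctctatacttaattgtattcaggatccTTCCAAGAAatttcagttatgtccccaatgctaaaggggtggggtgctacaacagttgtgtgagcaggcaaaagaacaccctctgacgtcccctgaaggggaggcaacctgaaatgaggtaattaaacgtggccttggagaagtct

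NFI and STAT factors are known regulators of astrocyte genes. Of the 10 genes, 8 had a promoter in the table, 10 promoters in all, with a GC content of 45.3% to 73% where the median of 32851 promoters was 52.7%. The Slc1a2 promoter among them belongs to a start inside the gene (chr2:102706188-102706487), not to the Slc1a2 start site scored below. The full palindromic NFI motif was in 0 of the 10 and in 0.0365% of all promoters. The single arm was in 3 of 10, those of Slc1a2, S100b (4 matches) and Aldoc, against 46.7% of all. Every full motif holds both arms, so these searches overlap. The STAT letters were in 3 of 10, against 8.3% of all. They lay at bases -96 to -88 in Slc1a3 and -2 to 6 in Gfap, counting the start base as 0, and also in the promoter of the second start of Aldoc. The AP-1 letters TGANTCA, bound by the factors that neuronal activity induces, were in 1 of 10, that of Gja1, against 7.81% of all. The SOX letters ACAATG and ACAAAG were in 0 of 10 each, against 12.6% and 18.7% of all. These matches are letters in a window and were not tested as binding sites.

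Each site was followed by its rank. Summits were ranked within a library on their −log10 p, and the rank score of a window was log2(178672 / rank) for its best summit, where 178672 summits made up the shortest deposited list. A score higher by 1 is a rank nearer the top by a factor of 2, and a score of 0 means that no summit was among the first 178672 ranks, so a difference from 0 is a lower bound. A library held a site when its score was above 0. Of the 244 sites, 41 were held in all 44 libraries, 24 in no DIV7 library and 26 in no DIV18 library. Differences were tested with limma over all regions that at least 2 libraries of the fit held, and a site was called at a Benjamini-Hochberg adjusted p under 0.05.

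The labelled cell type, primary neuron, was checked against markers at gene starts. Between 11 and 12 of 12 neuronal starts were held in every library, and 8 of the 10 progenitor starts were held in all 44. Of 5 microglial starts, Aif1, Cx3cr1, Itgam and Trem2 were held in 0 libraries and P2ry12 in 25. Of 7 oligodendrocyte lineage starts, Mag and Mog were held in 0 libraries, Olig2 and Cnp in 44, Cspg4 in 35, Nkx2-2 in 30 and Pdgfra in 28. Of 6 vascular and meningeal starts, Col1a2 and Tek were held in 0 libraries, Foxc1 in 44, Kdr in 37, Flt1 in 31 and Cldn5 in 26. Of the 10 markers, Aqp4 had no start site, and the start was held in 39 libraries for S100b, 41 for Gfap, 43 for Gja1 and 44 for the others. Of 17 starts of other astrocyte genes, Nfia was held in 21 libraries, Gjb6 in 24, Slc7a10 in 27 and the others in 44. Open starts of astrocyte, progenitor, oligodendrocyte lineage and vascular genes were thus present beside neuronal ones. In bulk cultures a smaller share of astrocytes and less accessibility per astrocyte cannot be told apart.

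The marker loci stood lowest in the lists of the Arid2 experiment and higher in the other cultures. Among the strongest 100000 summits of a library, those in the 10 loci numbered 87 to 109 in the 8 Arid2 libraries (median 97.5). They numbered 111 to 182 at DIV18 (20 libraries, median 140), 136 to 172 in DMSO (8 libraries, median 150.5) and 148 to 215 in FHT1015 (8 libraries, median 174). The Arid2 experiment does not overlap the others, while the DIV18 and drug ranges overlap. The deposited lists held 178672 to 245130 summits in the Arid2 experiment, 233687 to 347568 at DIV18 and 233609 to 389907 in the drug experiment. The part that depth played in these totals was not tested.

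**Figure D1:**
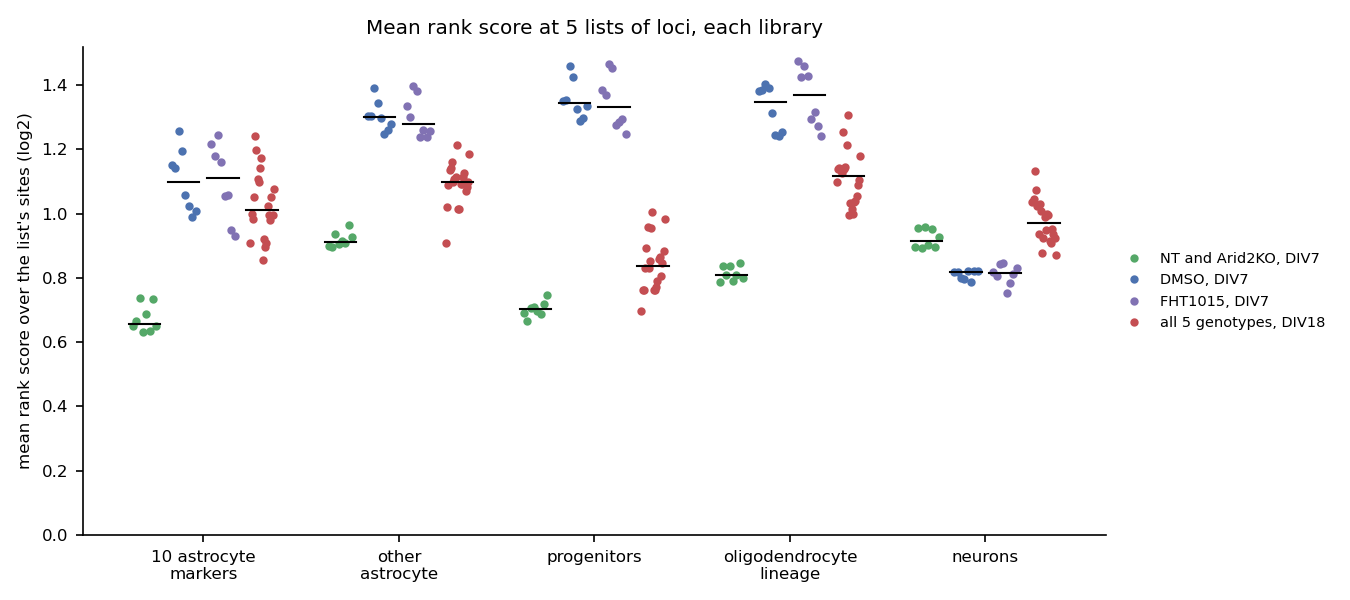
Mean rank score (log2) over the sites of 5 lists of loci, with 1 point per library and a bar at the median of each set of cultures. The 10 astrocyte markers run from 0.63 to 0.74 in the DIV7 cultures with guides and from 0.85 to 1.26 in the other sets, and the progenitor loci are highest in the drug experiment.

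The first comparison asked how the marker loci differ between young and older neurons. Non-targeting cultures are the only ones present at both ages. At DIV18 against DIV7, 102 of 225 tested sites were called, 71 higher (31.6%) and 31 lower (13.8%). Of all 174692 regions tested, 51.4% were called, 27.6% higher and 23.8% lower, so the share called was lower than over all regions. A site that passed the filter only through 1 age had to differ in that direction, so these counts are a description. Median differences were 0.18 for the marker sites and 0.03 for all regions. The sites of Aldh1l1 (12 higher and 1 lower of 28), S100b (10 and 1 of 19), Slc1a2 (12 and 4 of 42), Gfap (10 and 4 of 36) and Aldoc (9 and 3 of 19) were called higher more often than lower. Sox9 had 4 higher and 7 lower of 15, Slc1a3 5 and 6 of 25, Fgfr3 5 and 2 of 26, Aqp4 3 and 2 of 8 and Gja1 1 and 1 of 7. These counts by gene are against the non-targeting reference only. Other lists moved too: 150 sites higher and 122 lower of 668 for 23 other astrocyte genes, 81 and 35 of 255 for the oligodendrocyte lineage, 54 and 49 of 261 for progenitors and 153 and 151 of 555 for neurons. Housekeeping loci had 100 higher and 26 lower of 219, and early activity loci 220 and 38 of 444, both with a larger share of higher sites than the markers. The part of other cell types in the result was not tested. Age and experiment cannot be told apart in this comparison. With the log2 number of summits as a covariate 45 sites were called, 29 higher and 16 lower. Of 174692 regions that setting called 37722, 19275 higher and 18447 lower.

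The drug experiment gives another DIV7 reference, DMSO for 30 min, and the balance of calls turned with it. Against that reference 153 of 244 sites were called, 53 higher (21.7%) and 100 lower (41%), where 62.2% of all regions were called, 30.3% higher and 32% lower, with a median difference of -0.15 over the marker sites. By gene, Aldh1l1, Gfap and Aldoc then had more sites called lower than higher. S100b still had more called higher, and Slc1a2 had about as many of each. Both comparisons use the same DIV18 libraries and are given side by side. The DIV7 references also differed from each other. DMSO for 30 min stood above the non-targeting culture at 106 of 244 marker sites (43.4%) and below it at 17 (6.97%), where 45.8% of all regions were called, 25.1% higher and 20.7% lower. This last comparison was added after the data were seen. In it progenitor loci were higher at 168 sites and lower at 22 of 300, oligodendrocyte lineage loci at 135 and 26 of 296 and neuronal loci at 84 and 148 of 567. The DIV7 cultures differ in experiment, guide and drug vehicle, which cannot be told apart.

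**Figure D2:**
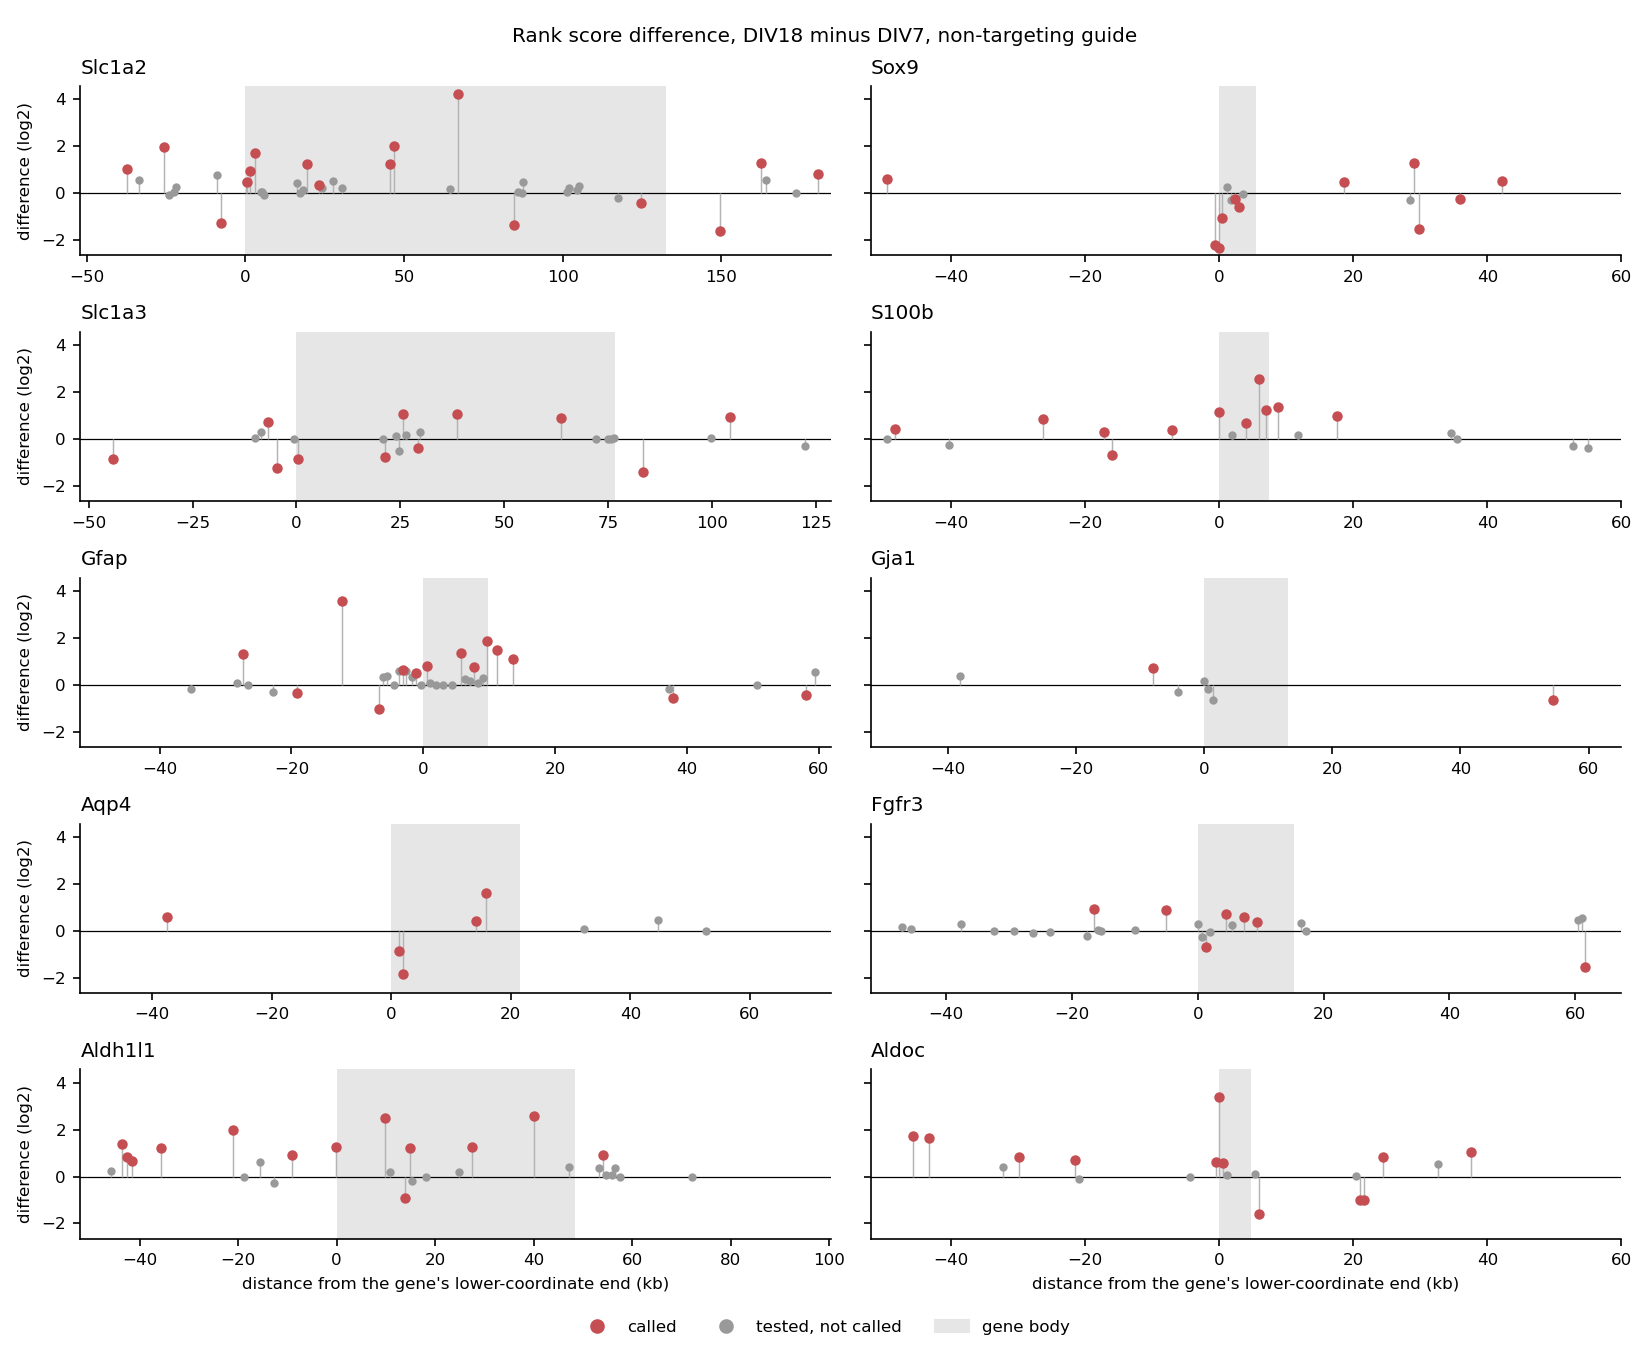
Difference in rank score (log2), DIV18 minus DIV7 with the non-targeting guide, at each tested site of the 10 loci against its distance in kb from the end of the gene with the lower coordinate. Red points were called, grey points were not, and grey bands are gene bodies. The tallest bars are the Slc1a2 gene body (4.25), a site beyond Gfap (3.56) and the Aldoc start (3.39), and the deepest is the Sox9 start (-2.32).

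Slc1a2, the main glutamate transporter of mature astrocytes, had body sites that ranked higher at DIV18 and others that ranked lower. Its start changed little. At the start site, chr2:102658586-102659085, the DIV7 non-targeting scores were 3.02 and 3.86 unstimulated and 3.51 and 3.43 after KCl. At DIV18 they were 4.16 and 4.28, and 3.59 and 3.67. The ranges overlap, and the difference of 0.47 ± 0.19 (SE, adjusted p = 0.0488, limma) was called only with all libraries or without the second unstimulated DIV7 library; without any other of the 8 libraries the call was lost, with differences of 0.26 to 0.50. A gene-body site (Slc1a2_27, chr2:102725000-102725499), 18811 bp from the nearer of 2 annotated starts, behaved otherwise. Its DIV7 non-targeting scores were 0 and 0 unstimulated and 1.34 and 0.66 after KCl, against 5.20 and 4.18, and 5.13 and 4.47, at DIV18. All 20 DIV18 libraries held it at 2.59 or more and 0 of the 16 drug libraries held it. The difference was 4.25 ± 0.23 (SE, adjusted p = 1.26e-11, limma) and 4.75 against the DMSO reference. Another gene-body site (Slc1a2_25, chr2:102704786-102705285), 1403 bp from the nearer start, was at 0 in all 24 DIV7 libraries and at 2.80, 2.79, 1.22 and 1.25 in the DIV18 non-targeting libraries. Other body sites were called lower against both references: Slc1a2_28 had -1.35 and, against DMSO, -0.66, and Slc1a2_37 had -0.42 and -0.67. Slc1a2_31, the strongest site away from gene ends, had 0.47, not called, and -1.86, called, against DMSO.

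Aldh1l1, a folate enzyme used as a pan-astrocyte marker, and Aldoc, the brain form of aldolase, had start sites that ranked higher at DIV18. This held against the non-targeting DIV7 reference. The Aldoc start (chr11:78322818-78323317), which overlaps the first promoter printed above, scored 1.09, 1.84, 0.62 and 1.39 in the DIV7 non-targeting libraries and 4.26, 4.71, 5.03 and 4.49 at DIV18. The groups lie far apart, with a difference of 3.39 ± 0.20 (SE, adjusted p = 6.35e-11, limma). In DMSO the same start scored between 2.74 and 3.69 with a median of 3.08 (8 libraries), and the difference from that reference was 1.36. Other Aldoc start windows did not all follow it. Aldoc_9 was 0.63 higher and, against DMSO, at -1.71, both called. Aldoc_11 had 0.60, called, and 0.20, not called, against DMSO. Aldoc_12, at the second start, had 0.06, not called, and -0.87, called, against DMSO. The Aldh1l1 start (chr6:90550491-90550990) scored 0.81, 1.76, 1.61 and 1.11 at DIV7 and 2.09, 3.31, 2.65 and 2.22 at DIV18, with a difference of 1.24 ± 0.29 (SE, adjusted p = 0.00139, limma). It was 0.48 and not called against DMSO. Inside the Aldh1l1 body, Aldh1l1_22 (chr6:90590707-90591206) was held in all 20 DIV18 libraries, at 1.08 to 4.04, and in 0 of the 24 DIV7 libraries. Aldh1l1_14 (chr6:90560326-90560825) was held in all 20 at 1.65 to 3.90, in the 8 Arid2-experiment libraries at 0.06 to 1.12 and in 0 of 16 drug libraries. Aldh1l1_16, also in the body, was called lower against both references, at -0.90 and, against DMSO, -0.61. In the flank Aldh1l1_2 turned with the reference, from 1.41 to -0.60 against DMSO, both called. Aldh1l1_3 and Aldh1l1_12 turned in the same way.

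Gfap, the filament protein, ranked higher at DIV18 than at DIV7 at its start and at a site beyond the gene. Its start (chr11:102896815-102897314) scored 0.20, 0.25, 0.73 and 0 at DIV7 with the non-targeting guide and 2.44, 2.52, 1.89 and 1.77 at DIV18. The difference of 1.86 ± 0.21 (SE, adjusted p = 2.71e-07, limma) fell to 0.69 against DMSO, where it was still called. A site inside the neighbouring gene Eftud2 (Gfap_7, chr11:102874769-102875268), 22182 bp from the Gfap start, scored 0 to 0.08 at DIV7 and 3.95, 3.89, 2.92 and 3.64 at DIV18. The difference was 3.56 ± 0.26 (SE, adjusted p = 8.07e-10, limma) and 3.57 against DMSO. Just upstream of Gfap (Gfap_31, chr11:102898256-102898755, 1305 bp from the start) the direction turned with the reference, from 1.49 ± 0.21 (SE, adjusted p = 8.1e-06, limma) to -1.30 against DMSO. Sites called against both references went both ways. Gfap_18, in the body, had 0.80 and, against DMSO, 0.62, while Gfap_39, in a flank, had -0.44 and -1.15. Gfap_8 and Gfap_34, at ends of other genes, were also lower against both.

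S100b, a calcium-binding protein that astrocytes secrete, gained a site in its body. S100b_11 (chr10:76259494-76259993) was at 0 in all 24 DIV7 libraries and scored 2.35 and 1.19 unstimulated and 3.61 and 3.12 after KCl at DIV18. The difference of 2.57 is a lower bound against either DIV7 reference. It is given with no test, since the site passed the filter only through DIV18. At the S100b start (chr10:76253536-76254035) the scores were 0, 0, 0.37 and 0 at DIV7 and 1.98, 1.43, 0.75 and 0.81 at DIV18. That difference was 1.15 ± 0.25 (SE, adjusted p = 0.000608, limma) and -0.37, not called, against DMSO.

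Sox9, a transcription factor of glial progenitors and astrocytes, ranked lower at DIV18 at its start. The annotation used gave no strand for Sox9. Its start was taken as the gene end nearest to the strongest site within 1 kb of an end. The start site (chr11:112781896-112782395) was among the strongest of all, at 5.08, 5.08, 5.65 and 5.25 in the DIV7 non-targeting libraries, and stood at 2.24, 2.10, 3.76 and 3.68 at DIV18. The difference was -2.32 ± 0.16 (SE, adjusted p = 3.05e-10, limma) and -2.17 against DMSO. All 24 DIV7 libraries lay between 4.85 and 5.65 and all 20 DIV18 libraries between 2.10 and 3.76, so the ages do not overlap. An adjoining window (Sox9_6, chr11:112782401-112782900) had a difference of -1.05 ± 0.28 (SE, adjusted p = 0.00416, limma) and -1.10 against DMSO. Away from the start, sites called against both references went both ways. Sox9_19, the strongest away from gene ends, had 1.30 and, against DMSO, 0.64, while Sox9_10, in the body, had -0.59 and -1.88.

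The strongest start sites of Slc1a3, Fgfr3 and Gja1 were called against 1 reference only. Other start windows differed: Fgfr3_18 was called lower against both, at -0.68 and, against DMSO, -1.45. Gja1_4 was called against neither, at 0.15 and -0.28. Slc1a3, the transporter shared with radial glia, scored 2.09, 1.84, 2.25 and 2.47 at its start (chr15:8710228-8710727) at DIV7 and 1.14, 1.95, 2.60 and 3.04 at DIV18, a difference of 0.02 ± 0.20 that was not called. Against DMSO it was -1.62 and called. Fgfr3, a growth factor receptor of glial progenitors, had 1.01, 0.75, 1.11 and 0.90 against 1.07, 1.34, 1.37 and 1.14 (chr5:33721476-33721975), a difference of 0.29 ± 0.20 that was not called, and a called -1.50 against DMSO. The connexin gene Gja1 was weak at its start (chr10:56377746-56378245), at 0.34, 0.04, 1.27 and 1.01 and then 0.12, 0.48, 0.28 and 1.04. Its difference was -0.19 ± 0.23, not called, and a called -1.08 against DMSO. Aqp4 had no site within 1 kb of an end of the gene. Its strongest site, in the gene body (Aqp4_5), scored 0.71, 1.23, 0.93 and 0.04 at DIV7 and 2.67, 2.88, 1.83 and 1.95 at DIV18. That difference, 1.61 ± 0.29 (SE, adjusted p = 9.9e-05, limma), was -0.27 and not called against DMSO. Another body site, Aqp4_3, was called lower against both references, at -1.83 and, against DMSO, -0.87. Aqp4_2, also in the body, had -0.87, called, and -0.12, not called, against DMSO.

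**Figure D3:**
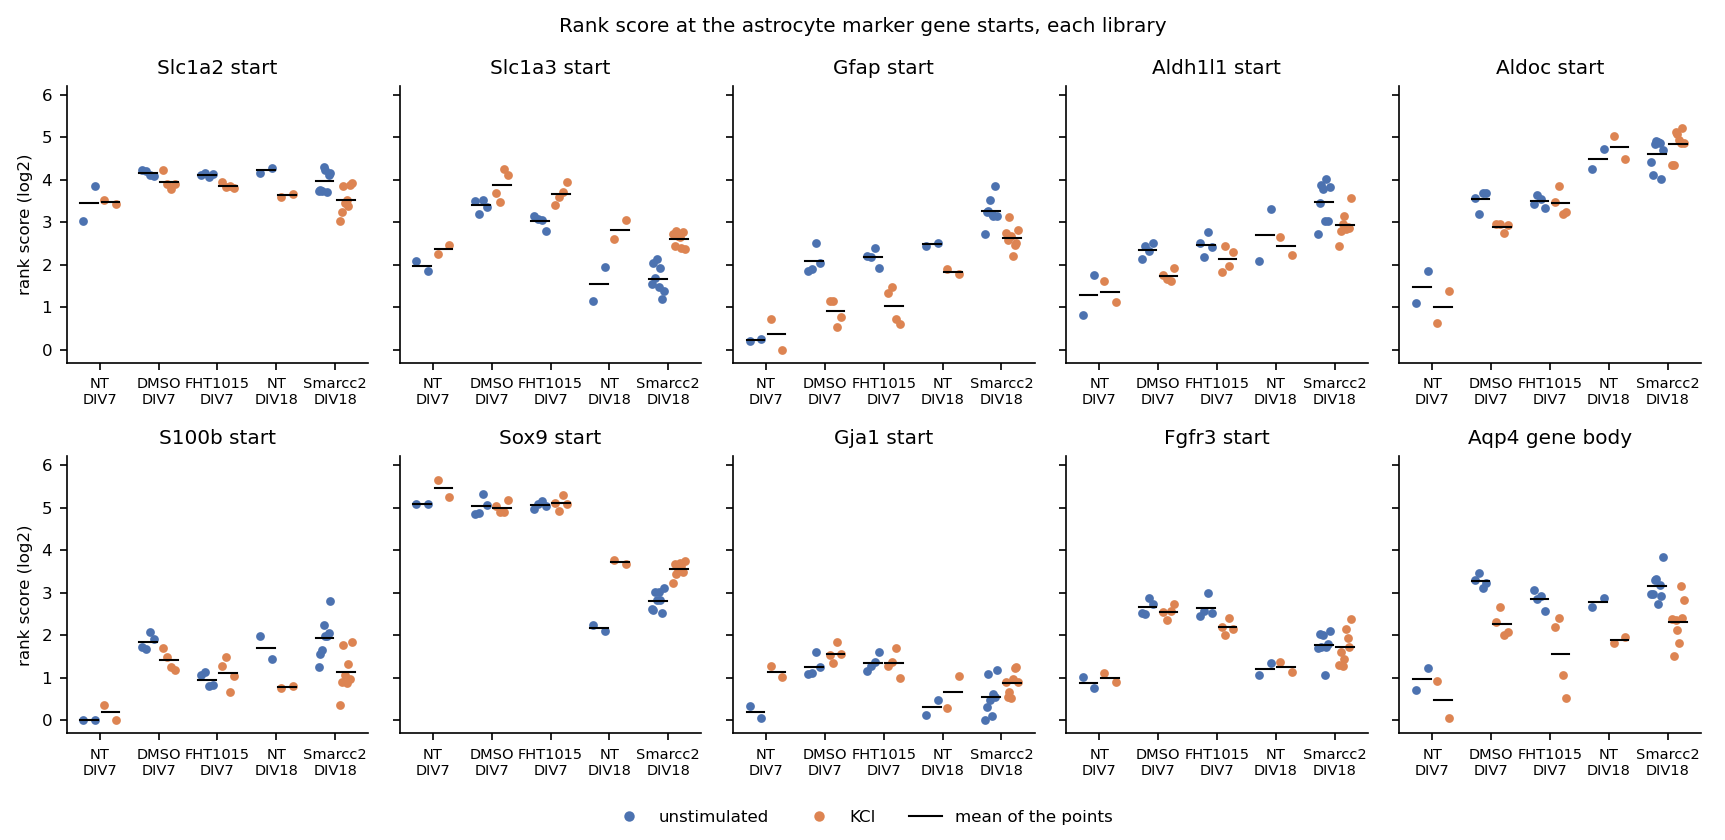
Rank score (log2) at the start site of 9 markers and at the strongest Aqp4 site, with 1 point per library, blue without and orange with KCl, and a bar at the mean. NT is the non-targeting guide and Smarcc2 pools the 4 knockout groups with vector or add-back. Aldoc is highest at DIV18 (4.02 to 5.22), Sox9 is highest at DIV7 (4.85 to 5.65), and the Slc1a2 ranges overlap between sets.

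KCl was next compared with no stimulation at DIV18, over 5 genotypes. Of 212 marker sites, 21 were called higher (9.91%) and 60 lower (28.3%), where 44.1% of 150730 regions were called, 17.7% higher and 26.4% lower. The share of lower sites was near that of all regions. The median difference was -0.10, against -0.07 over all regions. Gfap had 0 higher and 15 lower of 34 sites, Slc1a2 2 and 14 of 39, Aldh1l1 1 and 9 of 27, and Aqp4 0 and 3 of 6. Slc1a3 had 4 higher and 2 lower of 24 and Sox9 4 and 2 of 12. By position the 20 tested start sites had 7 higher and 5 lower, the 71 in gene bodies 4 and 24, and the 95 in flanks 4 and 23. With whole intervals ranked in place of summits, the split was 39 higher and 46 lower, where all regions had 33849 higher and 27826 lower.

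At several sites the libraries with and without KCl did not overlap. Slc1a2_19 (chr2:102677334-102677833), in the gene body and 19344 bp from the nearer start, scored 1.24 to 2.49 without KCl (10 libraries, median 1.99) and 0 to 0.58 with it (10 libraries, median 0.10). The groups do not overlap, and the difference was -1.77 ± 0.12 (SE, adjusted p = 4.7e-08, limma). S100b_11, the body site described above, moved the other way, from 0.79 to 2.35 (median 1.19) up to 2.53 to 3.61 (median 3.10), also without overlap. Its difference was 1.66 ± 0.16 (SE, adjusted p = 1.39e-06, limma). Sox9_5, the Sox9 start that was lower at DIV18, rose from 2.10 to 3.10 (median 2.72) to 3.24 to 3.76 (median 3.65), by 0.90 ± 0.10 (SE, adjusted p = 5.94e-06, limma). The Slc1a3 start rose from 1.14 to 2.13 (median 1.62) to 2.37 to 3.04 (median 2.67), by 1.00 ± 0.14 (SE, adjusted p = 3.76e-05, limma), and its groups do not overlap either.

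Other starts fell by less. The Gfap start went from 2.44 to 3.85 (median 3.17) to 1.77 to 3.11 (median 2.54), which overlap, with a difference of -0.63 ± 0.12 (SE, adjusted p = 0.000557, limma). The S100b start fell by 0.83 (SE 0.17, adjusted p = 0.00101, limma), opposite to the site in its own gene body. Slc1a2_27, in the body of the transporter gene, rose by 0.69 ± 0.14 (SE, adjusted p = 0.00087, limma) while the Slc1a2 start fell by 0.46 (SE 0.10, adjusted p = 0.00164, limma). Sites within a locus therefore moved in opposite directions. The Aldoc start was 0.26 ± 0.11 higher and not called. The calls at Slc1a2_19, S100b_11 and the starts of Sox9, Slc1a3, Gfap, S100b and Slc1a2 kept their side with any 1 of the 20 libraries left out.

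In the non-targeting DIV18 cultures alone, with 2 libraries against 2, 24 of 212 sites were called, 12 higher (5.66%) and 12 lower (5.66%), where 14.7% of all regions were called, 5.7% higher and 8.98% lower. Without any 1 of the 4 libraries the count was 12 and 15 for the unstimulated replicates 1 and 2, and 9 and 9 for the KCl replicates 1 and 2. With whole intervals the split was 19 higher and 5 lower, where all regions had 12045 higher and 6138 lower. Slc1a2_19 scored 2.49 and 2.42 without KCl and 0.10 and 0 with it, a difference of -2.40 ± 0.28 (SE, adjusted p = 9.71e-05, limma). The Sox9 start scored 2.24 and 2.10 without and 3.76 and 3.68 with KCl, a difference of 1.55 ± 0.23 (SE, adjusted p = 0.000708, limma).

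At DIV7 the same stimulus in non-targeting cultures gave no call: 0 of 147 sites, where 0.152% of 134954 regions were called by limma, 0.141% higher and 0.0111% lower. At an unadjusted p under 0.05 there were 13 sites, and no alternative setting called any. The test of the difference between the ages called 12 of 225 sites, 6 higher (2.67%) and 6 lower (2.67%), where 3.42% of all regions were called, 1.45% higher and 1.97% lower. At 5 of the 8 called sites described by name every non-targeting DIV7 library stood at 0. Without 1 of the 8 libraries 3 to 8 sites were called. The counts were 7 and 6 without DIV18 unstimulated replicates 1 and 2, 3 and 3 without DIV18 KCl replicates 1 and 2, 7 and 7 without DIV7 unstimulated replicates 1 and 2, and 6 without DIV7 KCl replicate 2. They were 4 with sites held by at least 50% of libraries and 6 with the summit covariate, where 2098 of 115606 and 3145 of 174692 regions were called.

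In the DMSO cultures at DIV7 some marker sites were called with KCl, as were regions in general. The deposited lists were longer there, and the part of list length was not tested. The KCl responses of these DIV7 experiments were not tested against each other. After 10 min 30 of 207 sites were called, 8 higher (3.86%) and 22 lower (10.6%), where 16.5% of 135367 regions were called, 4.85% higher and 11.6% lower. Each of the 4 libraries moved that count when left out: to 16 and 13 for the unstimulated replicates 1 and 2, and to 14 and 11 for the KCl replicates 1 and 2. After 30 min 73 sites were called, 11 higher (5.31%) and 62 lower (30%), where 30.9% of all regions were called, 10.8% higher and 20.1% lower. The median difference was -0.23, against -0.09 over all regions. Without unstimulated replicate 1 the count was 45, and without KCl replicate 1 it was 42. Gfap had 2 higher and 13 lower of 38 sites, Slc1a2 0 and 10 of 31, S100b 0 and 6 of 10, Aqp4 0 and 4 of 8 and Fgfr3 2 and 8 of 26. Other lists had falling sites too: vascular and meningeal loci 9 higher and 32 lower of 100, the oligodendrocyte lineage 17 and 67 of 243, progenitors 26 and 57 of 268 and, of 647 sites of other astrocyte genes, 8.5% higher and 19.3% lower. Neuronal loci had 60 higher and 53 lower of 386. The part of other cell types was not tested.

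Sites at 2 marker starts fell most. At the second start of Aldoc (Aldoc_12, chr11:78323985-78324484) the scores reached 1.85 without KCl and were 0.08 and 0.10 with 30 min of it, a difference of -1.68 ± 0.21 (SE, adjusted p = 0.000228, limma). The Gfap start scored 2.52 and 2.03 without and 0.54 and 0.76 with 30 min of KCl, and the difference was -1.63 ± 0.18 (SE, adjusted p = 0.000128, limma). After 10 min the scores were 1.86 and 1.91 without and 1.16 and 1.15 with KCl, a difference of -0.73 ± 0.18 (SE, adjusted p = 0.0198, limma) that was not called without any 1 of the 4 libraries. The first Aldoc start fell by 0.86 (SE 0.15, adjusted p = 0.00161, limma) after 30 min, from 3.69 and 3.69 to 2.74 and 2.92. The Slc1a3 start rose by 0.74 ± 0.15 (SE, adjusted p = 0.00303, limma), from 3.53 and 3.35 to 4.25 and 4.11, as it did at DIV18. Aqp4_5 fell by 1.14 (SE 0.19, adjusted p = 0.00113, limma), from 3.11 and 3.24 to 1.99 and 2.07. The Sox9 start, which rose at DIV18, had -0.16 ± 0.13 and was not called. None of these sets of scores for Gfap, Aldoc, Slc1a3 and Aqp4 overlapped between 30 min of KCl and its control.

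**Figure D4:**
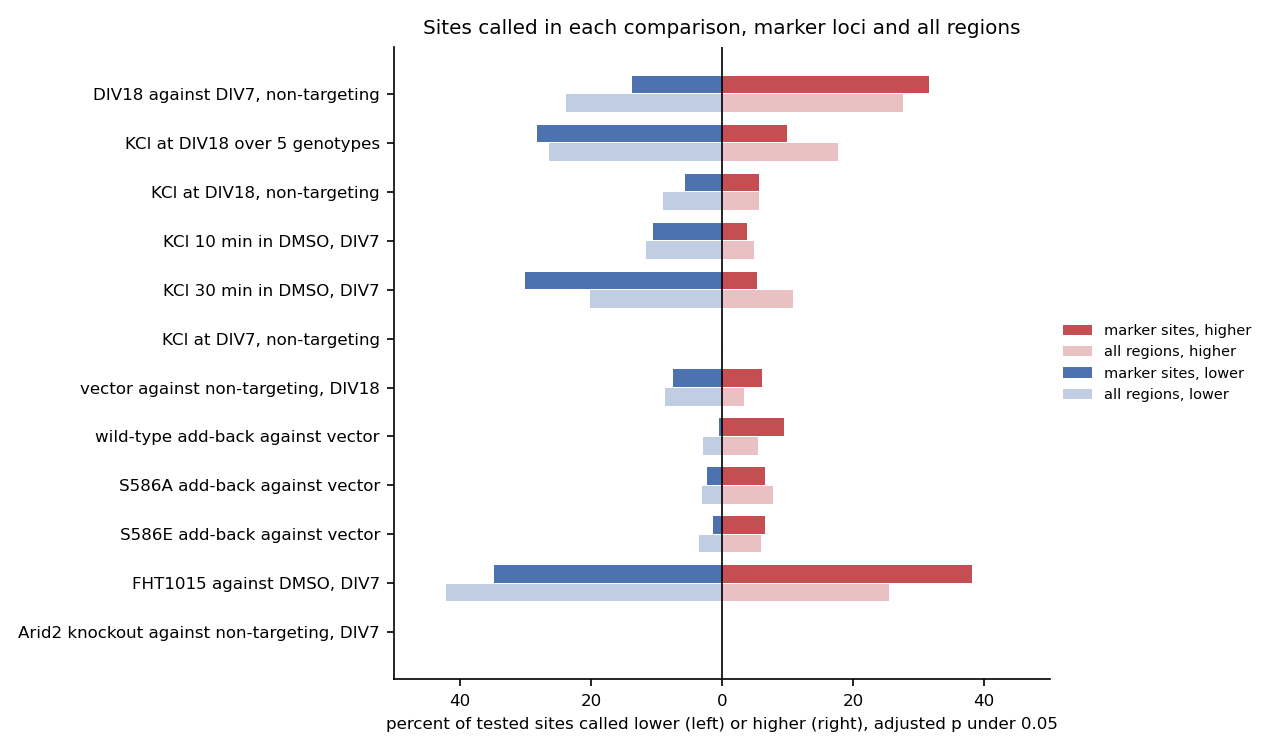
Percent of tested sites called higher (red, right) or lower (blue, left) in 12 comparisons, dark for the marker sites and pale for all regions. After 30 min of KCl in DMSO 30% of marker sites were lower against 20.1% of all regions, and after add-back of wild-type Smarcc2 0.472% were lower against 2.91%.

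The Smarcc2 knockout with vector was compared with the non-targeting guide at DIV18, and 29 of 212 sites were called, 13 higher (6.13%) and 16 lower (7.55%), where 12% of all regions were called, 3.28% higher and 8.73% lower. The median difference was 0.10, against 0 over all regions. Without 1 library the count was 15 and 25 for non-targeting unstimulated replicates 1 and 2, 18 and 13 for vector unstimulated replicates 1 and 2, 13 and 12 for non-targeting KCl replicates 1 and 2, and 18 and 13 for vector KCl replicates 1 and 2. With the summit covariate it was 16, where 13931 of 150730 regions were called. With whole intervals the split was 18 higher and 11 lower, where all regions had 5667 higher and 10563 lower. Gene-body sites that were higher at DIV18 than at DIV7 were among those that fell. Slc1a2_27 scored 3.12, 2.59, 3.48 and 3.14 with vector and 5.20, 4.18, 5.13 and 4.47 with the non-targeting guide, without overlap. The difference was -1.67 ± 0.22 (SE, adjusted p = 0.000468, limma). Aldh1l1_14 scored 2.03, 1.88, 1.72 and 1.65 with vector and 3.90, 3.62, 3.07 and 3.34 with the guide, a difference of -1.66 ± 0.22 (SE, adjusted p = 0.000536, limma). Slc1a3_8 (chr15:8634360-8634859), in the Slc1a3 body, also fell. Its DIV18 minus DIV7 difference turned with the reference, from -0.87 ± 0.22 with the non-targeting guide to 0.69, called, against DMSO. With vector Slc1a3_8 scored 1.74, 1.37, 0.37 and 1.08 against 3.59, 2.90, 1.96 and 2.19 with the guide, a difference of -1.52 ± 0.25 (SE, adjusted p = 0.00165, limma). Each of these 3 calls kept its side with any 1 library left out. The Gfap start, in contrast, was 0.66 ± 0.19 higher with vector (SE, adjusted p = 0.0319, limma).

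With wild-type Smarcc2 added back, more of the called marker sites were higher than lower relative to vector, and most tested sites were not called. Of 212 sites, 20 were called higher (9.43%) and 1 lower (0.472%), where 8.41% of all regions were called, 5.49% higher and 2.91% lower. The median difference was 0.16, against 0.02 over all regions. Aldh1l1 had 7 higher and 1 lower, Slc1a2 and Gfap 4 higher each and Aldoc 3. The count was 11 without vector unstimulated replicate 2, wild-type unstimulated replicate 1 or vector KCl replicate 2, 9 without wild-type KCl replicate 1 and 13 without wild-type KCl replicate 2. Limited to the top 50000 summits it was 9 higher and 4 lower, where all regions had 2592 higher and 1924 lower. Among other lists neurons had 5 higher and 35 lower of 483, progenitors 10 and 2 of 233, the oligodendrocyte lineage 8 and 5 of 238 and other astrocyte genes 17 and 11. Their part in the result was not tested.

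The Smarcc2 mutants S586A and S586E were each compared with the same vector libraries, which the 3 add-backs share. With S586A 14 sites were higher (6.6%) and 5 lower (2.36%) of 212, where 10.8% of all regions were called, 7.71% higher and 3.11% lower. With S586E 14 were higher (6.6%) and 3 lower (1.42%), where 9.48% of all regions were called, 5.94% higher and 3.53% lower. The median differences were 0.05 and 0.13, against 0.02 over all regions in each. The S586E count of 17 became 10 without either unstimulated vector replicate, 11 and 9 without vector KCl replicates 1 and 2, and 6 without S586E KCl replicate 2. Limited to the top 50000 summits, S586A had 8 higher and 6 lower and S586E 8 and 5. Over all regions S586A then had 3816 higher and 2223 lower, and S586E 2564 and 2255. Of the other lists with S586A, neurons had 14 higher and 32 lower, progenitors 10 and 4, the oligodendrocyte lineage 16 and 6 and other astrocyte genes 18 and 22. With S586E neurons had 7 and 48, progenitors 24 and 3 of 233, the oligodendrocyte lineage 34 and 9 of 238 and other astrocyte genes 32 and 19 of 602. The mutants were not tested against each other or against wild type.

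The add-backs are shown library by library at gene-body sites. Slc1a2_27 and Aldh1l1_14 were described above because they were low with vector, and the same vector libraries are the reference for all 3 add-backs. Values low by chance in those libraries would raise every difference from them. The differences and p-values at these sites are therefore a description. Slc1a2_27 scored 3.99, 3.60, 4.59 and 4.65 with wild type, 4.13, 3.70, 5.26 and 4.99 with S586A and 3.57, 3.58, 4.50 and 4.36 with S586E, all above the highest vector library, 3.48. The differences from vector were 1.13 ± 0.22 (SE, adjusted p = 0.00673, limma), 1.44 ± 0.22 (adjusted p = 0.00111) and 0.92 ± 0.22 (adjusted p = 0.0169). Without vector unstimulated replicate 2 or vector KCl replicate 2 the S586E call was lost, at 0.79 and 0.84. Aldh1l1_14 scored 2.59 to 3.48 with wild type, 2.96 to 3.57 with S586A and 2.73 to 3.54 with S586E, all above the vector maximum of 2.03. Its differences were 1.25 ± 0.22 (SE, adjusted p = 0.0043, limma), 1.44 ± 0.22 (adjusted p = 0.00131) and 1.25 ± 0.22 (adjusted p = 0.00391). For Aldh1l1_22, which has 1.08 to 2.51 with vector, they were 0.96 ± 0.23 (SE, adjusted p = 0.0198, limma), 1.40 ± 0.23 (adjusted p = 0.0019) and 1.29 ± 0.23 (adjusted p = 0.00401). S100b_11, which responded to KCl, had differences of 0.18, 0.81 and 0.29 and was not called with any of the 3.

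**Figure D5:**
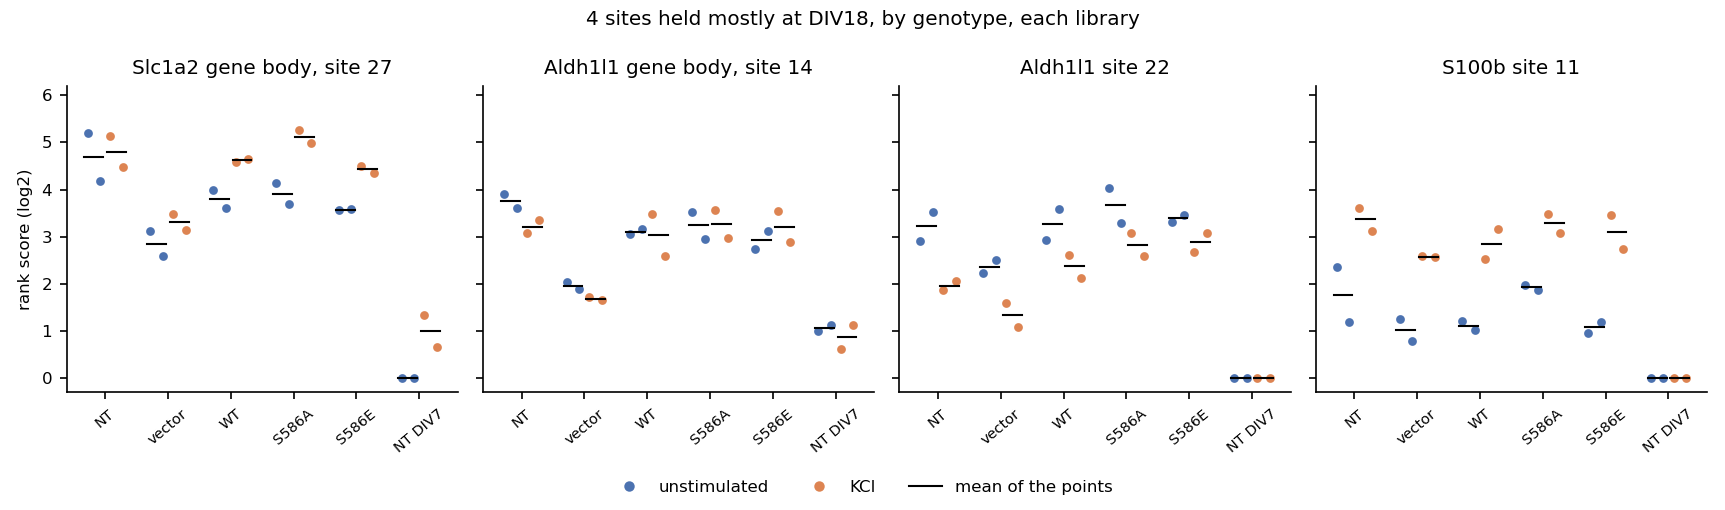
Rank score (log2) at 4 gene-body sites of Slc1a2, Aldh1l1 and S100b in the 5 DIV18 genotypes and the DIV7 non-targeting culture, with 1 point per library, blue without and orange with KCl, and a bar at the mean of 2. Vector is lowest of the DIV18 genotypes at the first pair of sites, and the S100b site is higher with KCl in all 5 genotypes.

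FHT1015 was next compared with DMSO. Against DMSO at DIV7, over both times and both states, 151 of 207 sites were called, 79 higher (38.2%) and 72 lower (34.8%). Over all regions 67.7% were called, 25.5% higher and 42.2% lower, so the share called was near that of all regions. The median difference was 0.04, against -0.09 over all regions. The genes split: Gfap had 23 higher and 7 lower of 38 sites, Sox9 14 and 2 of 19, Aldoc 9 and 4 of 19 and Gja1 4 and 2 of 7. Slc1a2 had 6 higher and 16 lower of 31, Slc1a3 7 and 12 of 25, Fgfr3 6 and 12 of 26 and Aldh1l1 7 and 9 of 24. With the log2 number of summits as a covariate 51 sites were called, 22 higher and 29 lower, where 37125 of 135367 regions were called, 10667 higher and 26458 lower. With the top 50000 summits 53 of 80 were called, 22 higher and 31 lower, where 29201 of 50174 regions were called, 12462 higher and 16739 lower.

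The largest falls were at distal sites. Fgfr3_2 (chr5:33674382-33674881), 47093 bp from the nearer Fgfr3 start, scored 2.88 to 3.38 in DMSO (8 libraries, median 3.11) and 0.37 to 2.44 in FHT1015 (8 libraries, median 1.74), without overlap. The difference was -1.51 ± 0.08 (SE, adjusted p = 6.56e-08, limma). Aldh1l1_3 (chr6:90508033-90508532), 42511 bp from the Aldh1l1 start, scored 1.71 to 2.53 in DMSO (median 2.21) and 0 to 1.37 in FHT1015 (median 1.02), a difference of -1.33 ± 0.09 (SE, adjusted p = 2.21e-07, limma). Slc1a3_16, in the same locus as the GLAST start, went from 2.74 to 3.51 (median 3.17) to 1.77 to 2.65 (median 2.05), a difference of -1.01 ± 0.06 (SE, adjusted p = 9.57e-08, limma). Gja1_3 (chr10:56372965-56373464), 4086 bp from the Gja1 start, was higher in the drug, at 1.28 to 2.32 (median 1.93) against 0.78 to 1.49 (median 1.12), by 0.81 ± 0.10 (SE, adjusted p = 2.56e-05, limma). Those Gja1 ranges overlap and the other 3 do not.

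Of 21 sites at marker starts, 6 were called higher and 6 lower with the drug. The strongest start site of each gene is described here. The Slc1a2 start differed by -0.07 ± 0.06, the Sox9 start by 0.07 ± 0.07, the Gja1 start by -0.07 ± 0.11 and the Gfap start by 0.11 ± 0.09, and none of these 4 was called. The Aldh1l1 start was 0.26 ± 0.11 higher and not called either. The Fgfr3 start had a called difference of -0.19 ± 0.08 (SE) that was lost or turned under 4 alternatives, to 0.02 with whole intervals. The Aldoc start was 0.25 ± 0.08 higher (SE, adjusted p = 0.0105, limma), and the call was lost with the summit covariate, at 0.08. The S100b start was lower, from 1.19 to 2.07 in DMSO (median 1.68) to 0.66 to 1.48 (median 1.05), by 0.59 (SE 0.08, adjusted p = 3.56e-05, limma), and the call was lost with the top 50000 summits, at -0.04. The Slc1a3 start fell by 0.29 (SE 0.07, adjusted p = 0.00351, limma), and the call was lost with whole intervals, at -0.10.

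Arid2 knockout at DIV7 changed no marker site by this test. Of 147 sites 0 were called by limma and 7 had an unadjusted p under 0.05, where 0.0119% of all regions, 16 in number, were called, 0.00445% higher and 0.00741% lower. No alternative setting called a marker site. Among the strongest start site of each of 9 markers the largest difference was 0.38 ± 0.20, at Slc1a3, and the Sox9 start differed by -0.02 ± 0.14.

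Genes whose loci followed the same pattern were ranked by Pearson's r between mean locus scores over the 22 groups, among 16735 genes. The closest that shared no site with a marker were Zcchc24 (r = 0.97), Rbpjl (0.96), Fads2 (0.96), Dnaic2 (0.96) and Tex33 (0.96), and 127 genes had r over 0.9. The 22 groups share experiments and list lengths, so these values describe the pattern only.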

How the data were processed

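ATAC-seq peak lists of 44 libraries, 2 in each of 22 groups, were analysed. The authors deposited 1 list per library with, for each summit, a fold enrichment (a ratio over the peak caller's background) and the −log10 p and −log10 q. The submitters' processing notes name the build mm10, the aligner Bowtie2 and the peak caller MACS2, with bedtools, Picard, SAMtools, Trim Galore and FastQC; versions, order and filters are not given in the sources used here. Replicates were not pooled, per the labels. The −log10 p grows with depth, so ranks were used. Read depth is unknown, and no interval that needs it is given.

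Autosomal summits were ranked on −log10 p. The top 100000 of each library, best rank first, gave 500 bp windows that do not overlap, and the score used the first 178672 ranks. Gene bodies came from RefSeq GRCm38.p6. Differences were fitted with limma 3.58.1 in R 4.3.3, with trend, over the libraries of each experiment, with the Arid2 and DIV18 libraries in 1 fit for comparisons of the ages; all 44 libraries entered 1 fit for the DMSO reference. Tables were made with Python 3.11.15, pandas 2.3.3 and numpy 2.4.6, and the fits were tested on simulated data. Sites were named by 3 rules: the strongest at each gene start, the strongest of each gene away from gene ends, and per comparison up to 8 called sites with the largest change, at most 2 per gene. Other sites or comparisons of these sites were chosen after their values were seen. The members and lists were chosen with earlier results of these data known. The fit of 44 libraries with the non-targeting DIV7 reference and the comparison of the DIV7 references were chosen after the data were seen.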

Additional observations from a re-analysis of the deposited data

Results flagged for a closer look

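At 8 sites described by name the KCl response differed between DIV18 and DIV7 non-targeting cultures by limma's interaction term, given here as the DIV18 response minus the DIV7 response. At 5 of them every non-targeting DIV7 library stood at 0, so a fall with KCl could not have been seen there, and their values restate the DIV18 response: Slc1a2_19 (-2.40), Slc1a2_25 (-1.56), Sox9_17 (-0.92), S100b_7 (-0.78) and Fgfr3_15 (-1.58). They are given as a description, with no test.

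At the other 3 sites both ages had scores above 0. Aldh1l1_2 had -1.51 ± 0.35 (SE, adjusted p = 0.0237), and the call was kept in 4 of 8 fits that each left out 1 library. Slc1a3_21 had 1.85 ± 0.50 (adjusted p = 0.0459, kept in 2 of 8) and Sox9_5 1.17 ± 0.31 (adjusted p = 0.043, kept in 1 of 8). Age and experiment cannot be told apart in these differences.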

How the results depend on the processing

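With lists shortened to the top 50000 summits fewer marker sites were tested, and the number called became 34 of 96 for DIV18 against DIV7, 38 of 89 for KCl at DIV18 over 5 genotypes, 15 of 89 for KCl in non-targeting DIV18 cultures, 16 and 33 of 80 for 10 and 30 min of KCl in DMSO, 15 of 89 for vector, 13 of 89 for wild-type add-back and 53 of 80 for FHT1015, with 9 higher and 24 lower for 30 min of KCl. Over all regions the top 50000 summits had 6899 higher and 9993 lower for 30 min of KCl. With the log2 number of summits as a covariate the number of marker sites called was 45 for DIV18 against DIV7, 16 for vector, 51 for FHT1015 and 6 for the interaction (1 higher, 5 lower). The interaction then had 1180 higher and 1965 lower over all regions. With sites held by at least 50% of libraries the interaction had 4 (1 higher, 3 lower), and with whole intervals 10 min of KCl had 11 and the interaction 8 higher and 4 lower. Over all regions these were 962 higher and 1136 lower, 6891 called, and 3583 higher and 1737 lower. With only summits near the window's centre S586E had 13 higher and 1 lower, where all regions had 7492 higher and 4586 lower. Against the DMSO reference 153 sites were called, and with 44 libraries in 1 fit, chosen after seeing the data, 80 higher and 31 lower. That last fit had 55487 higher and 45595 lower over all regions. Apart from the fewer sites tested, the cause was not tested. Rank on fold enrichment gave the values of rank on p.

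Without 1 library the counts ran from 84 to 100 for DIV18 against DIV7, 75 to 86 for KCl at DIV18 over 5 genotypes, 9 to 15 for its non-targeting cultures, 11 to 16 and 42 to 63 for 10 and 30 min of KCl in DMSO, 3 to 8 for the interaction, 12 to 25 for vector, 9 to 17 for wild type, 13 to 18 for S586A, 6 to 21 for S586E and 137 to 150 for FHT1015. They stayed at 0 for KCl at DIV7 and for Arid2. With the replicate block the counts were 103, 85, 28, 27, 68, 13, 34, 25, 26, 22 and 150 in the same order, and 0 and 0. Replicates with the same number deviated together weakly at most, with correlations of -0.0573 to 0.0831 in the drug experiment (28 pairs of groups), 0.0288 to 0.177 at DIV18 (45) and 0.00129 to 0.0179 in the Arid2 experiment (6), so the numbers were not taken as pairs.

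Direction was checked at the sites named by rule, in selected comparisons only. Single sites turned there in 15 cases. With the DMSO reference these were Slc1a2_10 (-0.040), Slc1a2_31 (-1.86), Slc1a3_22 (-1.62), Gfap_31 (-1.30), Aqp4_5 (-0.27), Aldh1l1_2 (-0.60), S100b_8 (-0.37), Fgfr3_16 (-1.50) and Fgfr3_11 (-0.79). Outside the checked pairs further sites turned with the DMSO reference, called under both references, so the list is not complete. Examples are Slc1a3_8 (-0.87 to 0.69), Slc1a2_38 (-1.61 to 0.90), Slc1a3_13 (1.05 to -2.26) and Aldoc_9 (0.63 to -1.71). With whole intervals the turns found were Aldh1l1_10 after 10 min of KCl (-0.29) and in FHT1015 (-0.46), and Gfap_19 (0.087) and Fgfr3_16 (0.017) in FHT1015. Gja1_6 in FHT1015 was 0.10 with the covariate, and Sox9_4 at DIV18 was 1.22 with only summits near the centre. Of the other values at named sites, leaving out a library kept the call's side 1795 times, lost it 226 times and gained it 19 times, and the other settings did so 1549, 114 and 18 times. Weak summits limit these counts, since ranks beyond 178672 were not seen.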
